A study of Homo sapiens with 8 samples.

Results

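The Krüppel-like factors (KLFs) were examined by RNA-seq in a human colorectal cancer line in which the DNA methylation regulator UHRF1 had been depleted. The 10 genes described are KLF2, KLF3, KLF4, KLF5, KLF6, KLF7, KLF9, KLF10, KLF11 and KLF13, matched by gene name among the 60649 gene identifiers of the tables, of which 19942 are protein-coding. They were chosen by their TPM in these libraries, with KLF2 having opposite directions in the knockdowns of the lines. The members' own knockdown values are therefore given as a description, without p-values. Any count of members in the knockdowns is descriptive too.

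KLFs are transcription factors that bind GC-rich and CACCC-type sequences in promoters through zinc fingers at their C-terminal end, a feature they share with the SP family. Their N-terminal parts differ, so that KLF2, KLF4, KLF5, KLF6 and KLF7 act largely as activators, KLF3 recruits the CtBP corepressor, and KLF9, KLF10, KLF11 and KLF13 recruit SIN3A. In the intestinal lining KLF5 is known from dividing crypt cells and KLF4 from differentiated cells, while several others respond quickly to growth factors, TGF-beta or shear stress.

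Polyadenylated RNA came from HCT116 cells, the parental colon carcinoma line, and from UF1hypo cells, a single HCT116 clone with a heterozygous knockout in which part of 1 UHRF1 allele was removed. Each line carried a lentiviral short hairpin, either the scrambled control (shScr) or one that targets UHRF1 (shUHRF1), and was kept as puromycin-resistant pools, so that all 4 groups share viral infection and drug selection. There were 2 libraries in each group and 8 in all, and the day of harvest after infection is not given for these libraries in the sources used here. Nothing in the labels says that the libraries of a group came from separate cultures, so p-values measure only the spread between libraries, which may be technical. Because UF1hypo is 1 clone, the loss of the allele and any other property of that clone cannot be told apart.

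Expression is given in TPM, a unit of transcript abundance per length of gene with an equal sum in every library, so that levels of different genes can be compared. Log2 fold changes are differences between group means of log2(TPM + 1) from a single limma fit over all protein-coding genes, on which changes of weakly expressed genes come out too small. A gene counted as called at a Benjamini-Hochberg adjusted p below 0.05 together with a log2 fold change above 1 in size. Aligned bases per library ranged from 5.42 to 7.83 gigabases, and the number of reads behind a single gene is unknown.

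UHRF1 was at 87.5 and 98.4 TPM in HCT116 shScr and at 31.7 and 32.7 TPM in HCT116 shUHRF1. UF1hypo shScr had 47.3 and 50.6 TPM and UF1hypo shUHRF1 had 34.1 and 21.1 TPM. UHRF1 was thus lower without overlap in both knockdowns, by log2 fold changes of −1.50 and −0.84. Limma called neither difference (adjusted p of 0.0634 in HCT116 and 0.0405 in UF1hypo, the latter under the fold threshold). A gene that is not called, in HCT116 above all, may therefore still have changed. Of 8 epithelial markers, 6 exceeded 1 TPM in some library, VIL1 and LGALS4 being the exceptions. The 5 endothelial markers summed to at most 0.733 TPM and the 5 leukocyte markers to at most 2.46 TPM. The 5 fibroblast markers, of which COL1A1 alone exceeded 1 TPM, summed to between 21.2 and 66.2 TPM, highest in UF1hypo shUHRF1, and their part in the values below was not tested. Because these are bulk cultures, fewer cells that express a gene and less RNA per cell cannot be told apart.

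The promoters of KLF2, KLF6 and KLF4 are shown because KLF2 had opposite directions in the lines, KLF6 had the largest fold difference of any member in UF1hypo, and KLF4 was lower in both lines. They are RefSeq windows of 300 bases in GRCh38.p14, from 250 bases before to 50 bases after a transcript start, read 5′ to 3′ on the strand of the gene. Capitals mark the GC box GGGCGG on either strand and, in KLF2, also the MEF2 site.
KLF2, chr19:16324576-16324875, plus strand: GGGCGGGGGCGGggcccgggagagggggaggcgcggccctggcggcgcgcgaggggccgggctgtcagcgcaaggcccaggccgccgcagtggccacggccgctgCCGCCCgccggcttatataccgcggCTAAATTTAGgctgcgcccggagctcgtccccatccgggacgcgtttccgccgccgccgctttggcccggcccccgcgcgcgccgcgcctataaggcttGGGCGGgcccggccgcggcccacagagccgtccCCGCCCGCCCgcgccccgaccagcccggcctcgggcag
KLF6, chr10:3785160-3785459, minus strand: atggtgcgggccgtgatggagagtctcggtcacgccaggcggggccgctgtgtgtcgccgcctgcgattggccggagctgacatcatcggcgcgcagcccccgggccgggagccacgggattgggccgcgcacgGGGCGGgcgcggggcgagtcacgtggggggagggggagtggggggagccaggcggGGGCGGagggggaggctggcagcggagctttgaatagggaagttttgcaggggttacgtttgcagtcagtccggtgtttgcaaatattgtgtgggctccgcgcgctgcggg
KLF4, chr9:107489720-107490019, minus strand: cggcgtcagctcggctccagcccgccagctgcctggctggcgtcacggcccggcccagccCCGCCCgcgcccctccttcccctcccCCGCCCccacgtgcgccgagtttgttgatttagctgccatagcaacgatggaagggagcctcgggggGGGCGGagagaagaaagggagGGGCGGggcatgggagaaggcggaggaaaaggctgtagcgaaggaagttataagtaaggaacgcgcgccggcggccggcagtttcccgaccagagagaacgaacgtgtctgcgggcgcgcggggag

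The KLF2 window held 49 CpG dinucleotides, more than 98.4% of the 35116 promoter windows in the RefSeq table, and 80.7% of its bases were G or C. It held 6 GC boxes, adjoining and overlapping matches each counted. It also held the MEF2 site CTAAATTTAG, which reads the same on both strands, from 120 to 111 bases before the start (chromosome 19, 16324706 to 16324715). A GC box is present in 45.0% of all windows and a MEF2 site in 2.99%, both strands searched. MEF2 factors are known activators of KLF2 downstream of the kinase MAPK7 (ERK5). The KLF6 and KLF4 windows held 33 CpG each, with 2 and 4 GC boxes, and no MEF2 site. The table gave 13 windows for 8 of the members, with a median of 33 CpG against 14 over all windows. The single KLF9 window, with 1 CpG, stood at the other end.

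KLF2, an activator known for quiescence of lymphocytes and endothelial cells, lies on chromosome 19 (ENSG00000127528.6; 16324826 to 16328685, plus strand) in 3 exons. In HCT116 it was at 38.6 and 37.5 TPM with shScr and at 19.4 and 19.0 TPM with shUHRF1. The UF1hypo libraries were at 49.98 and 42.95 TPM with shScr and at 109.7 and 79.5 TPM with shUHRF1. Knockdown libraries thus lay below both controls in HCT116 and above both controls in UF1hypo, with no overlap in either line.

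The group means of KLF2 ran from 94.6 ± 21.4 TPM in UF1hypo shUHRF1 through 46.5 ± 4.97 in UF1hypo shScr and 38.0 ± 0.793 in HCT116 shScr to 19.2 ± 0.286 in HCT116 shUHRF1 (± gives the SD over the 2 libraries of a group). The middle pair of this order, the controls of the lines, lay 0.28 apart on the log2 scale (SE 0.19), which is not beyond the spread between libraries by this measure although the libraries did not overlap. Both outer steps were larger. The log2 fold change was −0.95 (SE 0.19) in HCT116, where the mean was 1.98-fold lower, and 1.00 (SE 0.19) in UF1hypo, where it was 2.04-fold higher. Among all genes tested, 0.50% had a lower log2 fold change than KLF2 in HCT116 and 91.8% in UF1hypo. Both values lay just inside the fold threshold of 1, and the lines were 1.95 apart (SE 0.27). The fit shares 1 spread over the groups, so the SE in HCT116 includes the wider spread of UF1hypo shUHRF1. In HCT116 10 genes passed the adjusted p in this fit, all beyond the fold threshold. With the 4 HCT116 libraries alone, 515 genes passed it and 89 of them were called.

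**Figure D1:**
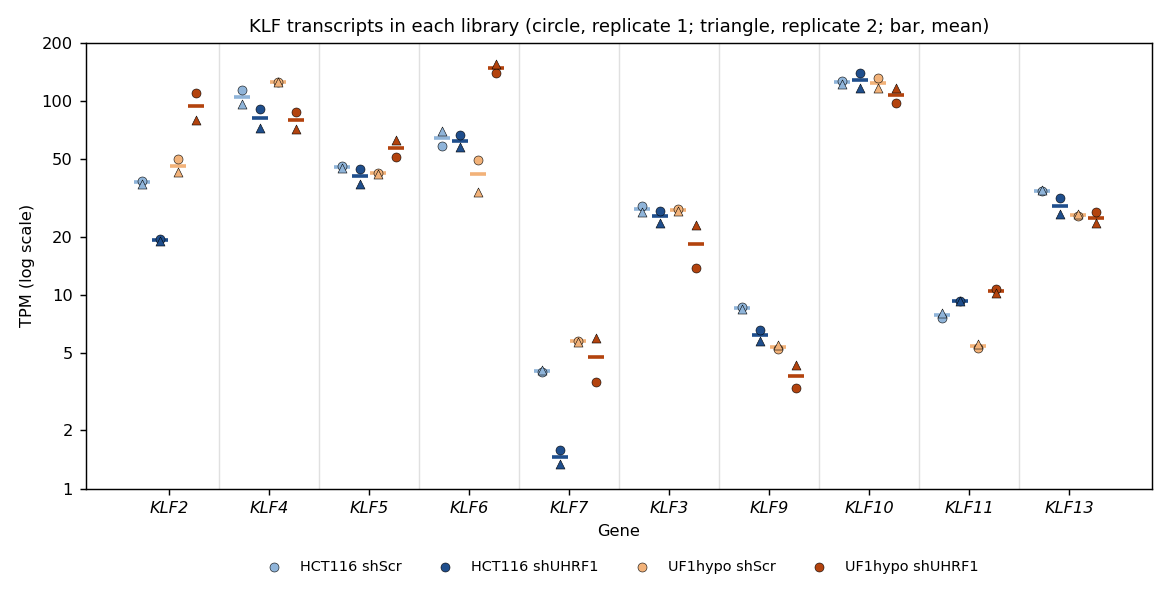
TPM on a log axis for each of the 10 members, with circles and triangles for replicates 1 and 2 of each of the 4 groups and short bars at the group means. The KLF2 points lie at 37.5 and 38.6 TPM with shScr and near 19 TPM with shUHRF1 in HCT116 and between 42.9 and 109.7 TPM in UF1hypo, while KLF6 stands apart in UF1hypo shUHRF1 at 139 and 156 TPM.

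KLF2 has a GC-rich transcript (64.8% G or C, more than 95.2% of 13781 expressed genes), and the libraries differed along this property. Between the replicates of UF1hypo shUHRF1 the difference in log2(TPM + 1) followed GC content with a Spearman's rho of 0.837 over 12691 genes, which are not independent replicates. In UF1hypo shScr rho was −0.538, and in the HCT116 groups it was −0.031 and −0.074. The difference of 0.46 between the KLF2 replicates of UF1hypo shUHRF1 became −0.05 after each library was corrected for GC content and transcript length. With this correction the log2 fold change of KLF2 was −0.95 in HCT116 and 0.67 in UF1hypo, the libraries still did not overlap in either line, and the difference between the lines was 1.62. The controls of the lines then lay 0.05 apart (SE 0.12) and their libraries overlapped. Without UF1hypo shUHRF1 replicate 1, the higher of the pair, the uncorrected UF1hypo value was 0.77, and without replicate 2 it was 1.23.

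**Figure D2:**
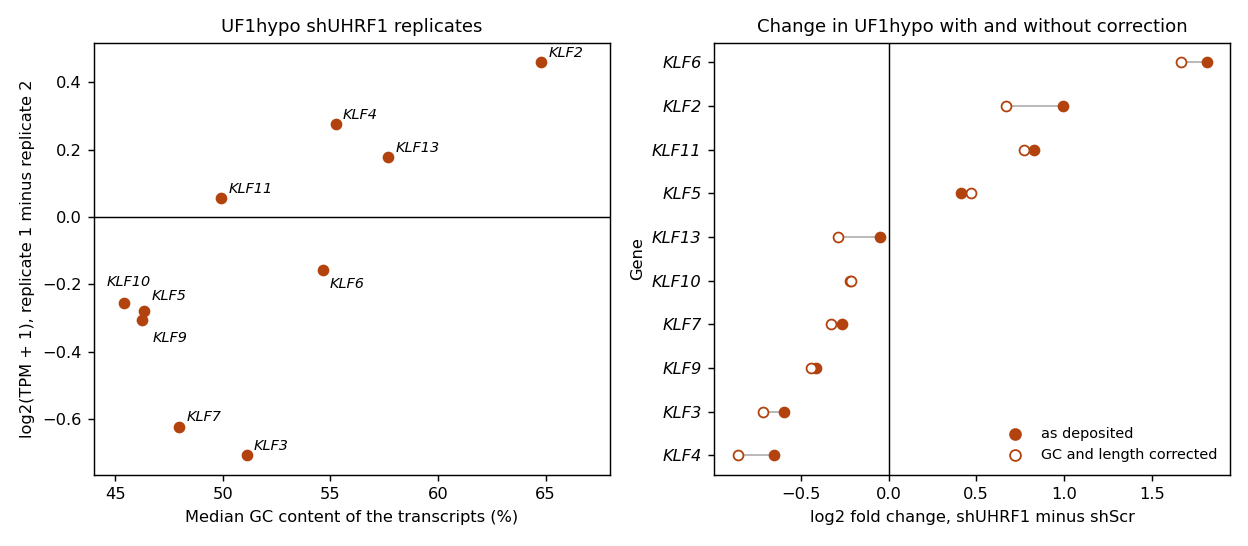
Left, log2(TPM + 1) of replicate 1 minus replicate 2 of UF1hypo shUHRF1 against transcript GC content for the 10 members. Right, log2 fold changes of shUHRF1 in UF1hypo as deposited (filled) and after correction for GC content and transcript length (open), where KLF2, with a replicate difference of 0.46 on the left, moves from 1.00 to 0.67 and KLF6 from 1.82 to 1.67.

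KLF4, an activator or repressor by context that restrains proliferation in the gut epithelium, lies on chromosome 9 (ENSG00000136826.15; 107484852 to 107490482, minus strand). It was at 115 and 96.4 TPM in HCT116 shScr and at 91.3 and 72.5 TPM in HCT116 shUHRF1. In UF1hypo it was at 125 TPM in both shScr libraries and at 87.5 and 72.1 TPM with shUHRF1. KLF4 was therefore lower without overlap in both lines, with a log2 fold change of −0.36 (SE 0.18) in HCT116 and −0.65 (SE 0.18) in UF1hypo.

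KLF5, known for driving growth of crypt cells, lies on chromosome 13 (ENSG00000102554.14; 73054976 to 73077541, plus strand). It was at 46.2 and 45.4 TPM in HCT116 shScr and at 44.5 and 37.5 TPM with shUHRF1. For UF1hypo the values were 42.6 and 42.3 TPM with shScr and 51.6 and 62.8 TPM with shUHRF1. Like KLF2 it was lower without overlap in HCT116 and higher without overlap in UF1hypo, but by less, with log2 fold changes of −0.16 (SE 0.17) and 0.41 (SE 0.17). Its HCT116 value was smaller than its standard error.

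KLF6, a widely expressed activator and candidate tumor suppressor, lies on chromosome 10 (ENSG00000067082.15; 3775996 to 3785281, minus strand). In HCT116 it was at 58.9 and 70.2 TPM with shScr and at 66.8 and 58.2 TPM with shUHRF1, and the libraries overlapped. In UF1hypo it was at 49.7 and 34.0 TPM with shScr and at 139 and 156 TPM with shUHRF1. The UF1hypo knockdown libraries held the highest KLF6 values of the series, with a mean of 147 ± 11.4 TPM that was 3.52-fold above the control mean of 41.8 ± 11.2 TPM. The log2 fold change was −0.04 (SE 0.21) in HCT116 and 1.82 (SE 0.21) in UF1hypo, a difference of 1.86 (SE 0.29). Corrected for GC content and length, it was 1.67 in UF1hypo. The small HCT116 value changed sign among the alternatives, from −0.06 to 0.01 with all libraries kept.

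KLF7, known from axon growth, lies on chromosome 2 (ENSG00000118263.15; 207074137 to 207167267, minus strand) and was the least abundant member in HCT116. It was at 4.02 and 4.11 TPM in HCT116 shScr and at 1.59 and 1.34 TPM with shUHRF1. UF1hypo shScr had 5.79 and 5.74 TPM and UF1hypo shUHRF1 had 3.54 and 5.99 TPM. KLF7 was 2.77-fold lower in HCT116 without overlap, with a log2 fold change of −1.04 (SE 0.24). The UF1hypo libraries overlapped (−0.26, SE 0.24). Annotated RNAs overlap KLF7, with KLF7-IT1 and MIR2355 on its strand and MYOSLID and MIR7845 on the other. They reached 0.59, 0.92, 0.88 and 1.70 TPM, each in a UF1hypo shUHRF1 library. How reads were divided between them and KLF7 was not tested.

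KLF3, the CtBP-binding repressor, lies on chromosome 4 (ENSG00000109787.13; 38664197 to 38701517, plus strand). It was at 28.7 and 26.8 TPM in HCT116 shScr and at 27.2 and 23.5 TPM with shUHRF1, and these libraries overlapped. The UF1hypo libraries were at 27.9 and 27.0 TPM with shScr and at 13.7 and 23.0 TPM with shUHRF1. The UF1hypo knockdown libraries were both lower, though far apart from each other, and the log2 fold change was −0.60 (SE 0.24). Without UF1hypo shUHRF1 replicate 1, the lower library, it was −0.24. An annotated antisense RNA, KLF3-AS1, overlaps KLF3 and was at 0.13 to 1.45 TPM. Whether counting used strand is not given in the sources used here, so reads in the shared stretch cannot be told apart.

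Among the SIN3A-binding members, KLF9, induced by glucocorticoid and thyroid hormone, was lower without overlap in both lines. It lies on chromosome 9 (ENSG00000119138.5; 70384604 to 70414657, minus strand) and was at 8.70 and 8.43 TPM in HCT116 shScr and at 6.59 and 5.78 TPM with shUHRF1. For UF1hypo the values were 5.28 and 5.50 TPM with shScr and 3.31 and 4.33 TPM with shUHRF1. The groups ran without overlap from HCT116 shScr down to UF1hypo shUHRF1, with log2 fold changes of −0.41 and −0.42 in the knockdowns (SE 0.20 each). The difference between the lines was near 0 (SE 0.29).

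KLF11, a TGF-beta-inducible repressor, lies on chromosome 2 (ENSG00000172059.11; 10042849 to 10054836, plus strand) and was the only one of the 10 that was higher without overlap in both lines. It was at 7.62 and 8.10 TPM in HCT116 shScr and at 9.27 and 9.34 TPM with shUHRF1. In UF1hypo it was at 5.34 and 5.55 TPM with shScr and at 10.7 and 10.2 TPM with shUHRF1, a 1.92-fold higher mean. The log2 fold changes were 0.22 (SE 0.18) and 0.83 (SE 0.18).

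KLF10, also induced by TGF-beta, lies on chromosome 8 (ENSG00000155090.15; 102648784 to 102655725, minus strand) and had the highest mean of the members in HCT116. It was at 127 and 123 TPM in HCT116 shScr and at 140 and 117 TPM with shUHRF1. In UF1hypo it was at 132 and 116.7 TPM with shScr and at 97.5 and 116.5 TPM with shUHRF1. The HCT116 libraries overlapped (log2 fold change 0.04, SE 0.16), and in UF1hypo the higher knockdown library lay just below the lower control (−0.22, SE 0.16).

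KLF13, a regulator of cytokine genes in T cells, lies on chromosome 15 (ENSG00000169926.11; 31326835 to 31435665, plus strand). It was at 34.3 and 34.7 TPM in HCT116 shScr and at 31.7 and 26.2 TPM with shUHRF1. UF1hypo shScr had 25.5 and 26.3 TPM and UF1hypo shUHRF1 had 26.7 and 23.5 TPM. It was lower without overlap in HCT116 (−0.25, SE 0.17), and the UF1hypo libraries overlapped (−0.05, SE 0.17). Corrected for GC content and length, both UF1hypo knockdown libraries lay below the controls (−0.29, SE 0.12).

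**Figure D3:**
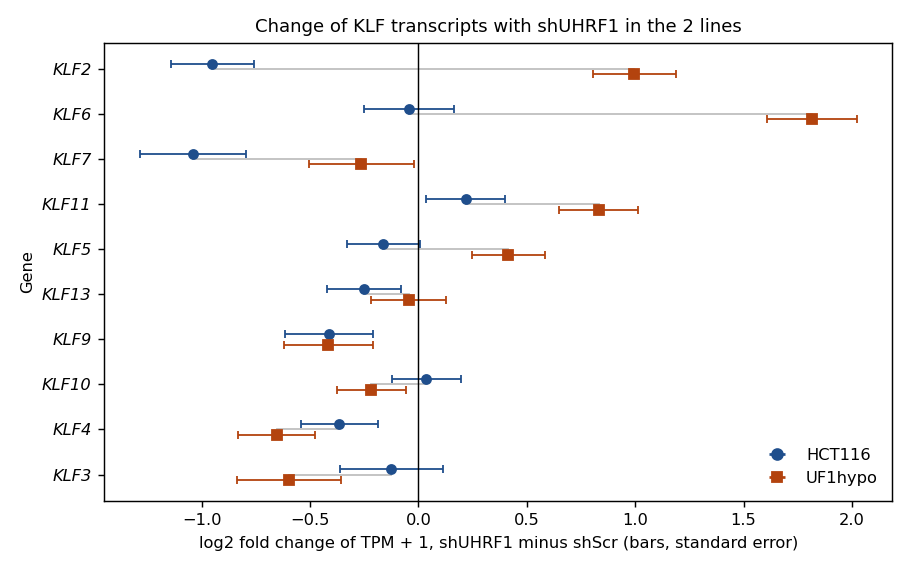
Log2 fold change of TPM + 1, shUHRF1 against shScr, with its standard error as a bar for each member in HCT116 (circles) and UF1hypo (squares), ordered by the difference between the lines. KLF2 lies at −0.95 and 1.00, KLF6 at −0.04 and 1.82 and KLF7 at −1.04 and −0.26, while KLF9 has nearly the same value in both lines.

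All 10 members exceeded the TPM filter in each of the 4 comparisons. Since the choice of members used the knockdowns, the following counts are descriptive. In HCT116, 0 members were called, where limma called 0.0787% of all genes tested (0.0551% higher and 0.0236% lower). There 6 members lay below both controls and 1 above, against 29.3% and 20.1% of all genes. Their median log2 fold change was −0.21, beside −0.03 over all genes.

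In UF1hypo 1 member, KLF6, passed both thresholds, which is not read as a test because the choice of members used these values. Of all genes in UF1hypo, 8.53% were called (7.39% higher and 1.14% lower). There 4 members lay above both controls and 4 below, against 30.6% and 18.3% of all genes, and their median was −0.13 beside 0.04. After the GC content and length correction 6 members lay below, KLF7 and KLF13 added, against 32.2% of all genes, and 4 above, against 31.6%. In HCT116 the corrected counts were 6 below and 2 above, KLF10 added, against 25.8% and 26.0%.

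The difference of the knockdown effects passed both thresholds for 2 members, KLF2 and KLF6. This restates the choice of members, which used the opposite directions of KLF2, and nothing is read from it. Of all genes, 5.09% were called (4.54% with the higher value in UF1hypo and 0.559% with the lower). The median difference over the members was 0.39 beside 0.08. With a library left out the difference lay between 1.72 and 2.18 for KLF2 and between 1.59 and 2.13 for KLF6. Members with opposite directions and no overlap in either line were KLF2 and KLF5, 2 of 10, where 10.3% of 12543 genes had such a pattern and 6.86% had it in the direction of KLF2. With the correction KLF10 had opposite directions too, higher in HCT116 and lower in UF1hypo.

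The clone was set against the parental line with the control hairpin to compare KLF levels at the clone's lower UHRF1 without the hairpin against it. The choice of members named the knockdowns and not this comparison. It drew on TPM of the same libraries, which both knockdown comparisons share, so the p-values are not free of that choice. KLF2, for which all 4 groups were used, is described without a test. KLF6 was at a lower level in the clone (log2 fold change −0.63, SE 0.21; −0.36 without UF1hypo shScr replicate 2 and −0.90 without replicate 1), as were KLF9 (−0.58, SE 0.20), KLF11 (−0.46, SE 0.18) and KLF13 (−0.40, SE 0.17). Each of the 4 had libraries that did not overlap and an unadjusted limma p under 0.05 (0.0146, 0.0201, 0.0348 and 0.0464), as had 18.4% of all genes tested, and none passed after Benjamini-Hochberg adjustment over all genes (adjusted p of 0.140, 0.167, 0.227 and 0.261). KLF7 was higher without overlap (0.42, adjusted p = 0.410 in limma) and so was KLF4 (0.25, adjusted p = 0.493). KLF5 lay slightly lower in both clone libraries (−0.11, adjusted p = 0.776), and the libraries of KLF3 and KLF10 overlapped (−0.01 each, adjusted p of 0.982 and 0.978).

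Of the members, KLF2 included, 3 lay above and 5 below in both clone libraries, where 29.1% and 37.2% of all genes did. With the GC content and length correction 3 lay above and 4 below, against 32.0% and 32.6%, as KLF2 and KLF5 came to overlap and KLF10 to lie above. Of the 9 members other than KLF2, limma called 0, and it called 3.54% of 12856 genes (2.58% higher and 0.957% lower). Taken gene by gene, an exact two-sided permutation test of 2 against 2 libraries has 0.33 as its smallest p. KLF6, KLF9, KLF11 and KLF13 kept their direction under all 22 alternatives tried.

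The rest of the family, the other KLF genes and the SP genes, comprised 17 genes, of which 11 were tested in HCT116 and in the clone comparison and 12 in UF1hypo and in the difference. Limma called 0 in each comparison, with 1 gene at an unadjusted p under 0.05 in HCT116, 4 in UF1hypo, 3 in the difference and 2 in the clone. Of all genes tested, that p was reached by 836 of 12704, 3737 of 13620, 2549 of 13781 and 2370 of 12856 in the same order. Limma called 0.0787%, 8.53%, 5.09% and 3.54% of them. The counts of the lists below are to be read beside these. Their median log2 fold change was −0.19 in HCT116 and 0.02 in UF1hypo. The abundant ones were KLF16, SP1, SP2, SP3 and SP6.

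KLF16, a repressor of the same subgroup as KLF13, was at 50.2 and 51.6 TPM in HCT116 shScr and at 61.7 and 61.9 TPM with shUHRF1. The UF1hypo libraries were at 67.7 and 64.8 TPM with shScr and at 62.1 and 47.9 TPM with shUHRF1. Its libraries lay above the controls in HCT116 and below them in UF1hypo, the reverse of KLF2, with neither difference called (log2 fold changes of 0.27 and −0.27). SP6, a factor known from tooth and skin appendage development, was at 16.5 and 15.2 TPM in UF1hypo shScr and at 29.8 and 25.6 TPM with shUHRF1. It passed adjustment in limma (adjusted p = 0.0319), with a log2 fold change of 0.77 that was under the threshold. SP1, SP2 and SP3, widely expressed factors of GC-rich promoters, had log2 fold changes between −0.29 and 0.26 in the knockdowns.

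The upstream regulators of KLFs, 13 genes of the MAPK7 to MEF2 route, TGF-beta signalling, FOXO1 and the glucocorticoid receptor, were all tested. In the knockdowns and in their difference limma called 0 of them. At an unadjusted p under 0.05 there were 0 in HCT116, 3 in UF1hypo and 1 in the difference. SMAD3, of TGF-beta signalling and named after its values were seen, passed adjustment in UF1hypo (adjusted p = 0.00543 in limma). Its log2 fold change of 0.96 was just under the threshold. In the clone limma called 1 of the 13 regulators, MEF2C, a MEF2 factor, which was lower. MEF2C was at 6.62 and 5.20 TPM in HCT116 shScr and at 2.19 and 1.57 TPM in UF1hypo shScr. Its log2 fold change of −1.26 passed narrowly in limma (adjusted p = 0.0475), and the call was lost when any 1 library other than those of UF1hypo shUHRF1 was left out (adjusted p from 0.0996 to 0.338).

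Of 5 ubiquitin ligases that act on KLF proteins and 10 corepressors and coactivators, limma called 0 in every comparison. At an unadjusted p under 0.05, the ligases had 0 genes in HCT116, 1 in UF1hypo, 1 in the difference and 0 in the clone. The cofactors had 0, 2, 3 and 1 in the same order. The median log2 fold change of the cofactors was 0.10 in HCT116 and 0.09 in UF1hypo, and that of the ligases was 0.14 and −0.23.

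Among 21 genes listed as KLF targets, limma called 4 of 18 tested in UF1hypo, all higher. Of all genes, 8.53% were called there (7.39% higher). In HCT116 limma called 0 of 15 targets, where 0.0787% of all genes were called, and 4 of the 15 had an unadjusted p under 0.05. The list was chosen with earlier results of these data known. The median of the targets was 0.35 in UF1hypo and −0.07 in HCT116, beside 0.04 and −0.03 over all genes. The genes that rose in UF1hypo code for the chemokine CCL5, the adhesion molecule L1CAM, the TGF-beta coreceptor ENG and the TGF-beta inhibitor SMAD7. The list mixes genes that KLFs activate with genes they repress. CCL5 was at 0 and 0.181 TPM in UF1hypo shScr and at 4.49 and 5.27 TPM with shUHRF1. L1CAM was at 17.0 and 18.1 TPM in UF1hypo shScr and at 74.6 and 47.9 TPM with shUHRF1.

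The log2 fold changes in UF1hypo were 2.43 for CCL5, 1.71 for L1CAM, 1.56 for ENG and 1.31 for SMAD7, with limma adjusted p from 0.000145 for CCL5 to 0.0258 for ENG. The calls of CCL5, L1CAM and SMAD7 held in every fit with a library left out. Over all alternatives, CCL5 and L1CAM were called in 23 of 23 and SMAD7 in 22 of 23 (adjusted p up to 0.0751 in limma). ENG lost its call without any 1 of 5 libraries, namely both of HCT116 shUHRF1, both of UF1hypo shScr and replicate 1 of UF1hypo shUHRF1 (adjusted p up to 0.132). SMAD7 was also higher in the clone with the control hairpin, at 18.9 and 17.3 TPM against 6.09 and 4.97 TPM in HCT116 shScr (log2 fold change 1.55, adjusted p = 0.00439 in limma). That call was lost without HCT116 shScr replicate 2 or UF1hypo shScr replicate 1 (adjusted p up to 0.057).

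The difference of the knockdown effects was called by limma for 4 of the 18 targets tested, and for 5.09% of all genes. It was positive, with the higher value in UF1hypo, for CCL5, L1CAM and CDH1 and negative for CDKN1A, of which CDH1 and CDKN1A are named after their values were seen. CDKN1A, the cell cycle inhibitor p21 and a classical KLF4 target, was at 285 and 307 TPM in HCT116 shScr and at 520 and 485 TPM with shUHRF1. For UF1hypo the values were 426 and 455 TPM with shScr and 357 and 283 TPM with shUHRF1. Its knockdown libraries lay above the controls in HCT116 and below them in UF1hypo, with a difference of −1.23 (adjusted p = 0.0148 in limma). Of the calls on the difference, only that of CCL5 held in every fit with a library left out, and the others were each lost without any 1 of the 6 libraries other than those of UF1hypo shUHRF1 (adjusted p up to 0.128 for CDH1).

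Immediate-early genes, which like several KLFs can be induced soon after a stimulus, were compared as a list of 17, all tested. In HCT116 limma called 0 (4 at an unadjusted p under 0.05), and 12 lay below both controls, as 29.3% of all genes did. In UF1hypo JUN and ATF3 were called, both higher, where 8.53% of all genes were called. There 6 genes lay above both controls and 7 below, against 30.6% and 18.3% of all genes. Some other genes of the list, higher as well as lower, passed adjustment with changes under the fold threshold. JUN, an AP-1 subunit, was at 43.8 and 38.7 TPM in HCT116 shScr and at 28.0 and 32.0 TPM with shUHRF1. In UF1hypo JUN was at 69.3 and 44.8 TPM with shScr and at 173 and 125 TPM with shUHRF1. It lay on the same side of its controls as KLF2 in each line, with a log2 fold change of −0.45 in HCT116 (adjusted p = 0.863 in limma) and 1.39 in UF1hypo (adjusted p = 0.00714).

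ATF3, a stress-induced factor, had a log2 fold change of 1.16 in UF1hypo (adjusted p = 0.00434 in limma). The calls of JUN and ATF3 were lost without UF1hypo shScr replicate 2 (adjusted p of 0.0596 and 0.0522). The 4 genes whose knockdown effect differed between the lines by limma's call were JUN, ATF3 and FOSL1, with positive values, and BTG2, with a negative one, and each of these calls was lost without 5 or 6 of the libraries (adjusted p up to 0.163 for ATF3). MYC fell in the clone, from 485 and 493 TPM in HCT116 shScr to 252 and 217 TPM in UF1hypo shScr (log2 fold change −1.06, adjusted p = 0.00444 in limma). The call was lost without either HCT116 shScr library or UF1hypo shScr replicate 2 (adjusted p up to 0.0714). MYC was not called in either knockdown.

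**Figure D4:**
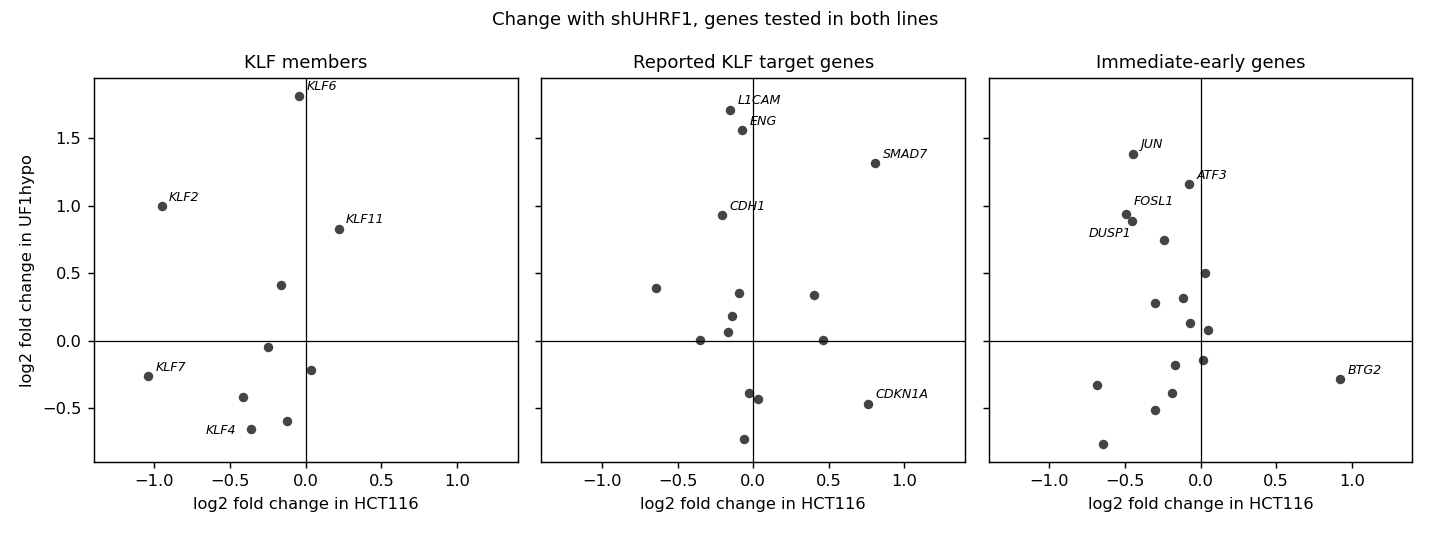
Log2 fold change of shUHRF1 against shScr in UF1hypo (vertical axis) against that in HCT116 (horizontal axis) for the members, the listed KLF targets and the immediate-early genes, with 1 panel per list and 1 point per gene tested in both lines. KLF2 (−0.95, 1.00) and JUN (−0.45, 1.39) lie in the upper left and CDKN1A (0.76, −0.47) in the lower right.

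Among 6010 genes with a mean above 5 TPM and group means that ranged over at least 0.5 on the log2 scale, the patterns most like KLF2 were those of DIP2C, MAPRE3, CSRNP1, TMEM120A and LAMB3. Pearson's r of log2(TPM + 1) over the 8 libraries was 0.993, 0.991, 0.988, 0.986 and 0.985. LAMB3, a laminin chain of the epithelial basement membrane, had group means of 27.6 TPM in HCT116 shUHRF1 and 132 TPM in UF1hypo shUHRF1. Within the family r with KLF2 was 0.734 for KLF5, 0.703 for KLF7 and 0.599 for KLF6, and lowest for KLF10 at −0.681. The 8 points form 4 groups and share library effects such as that of GC content, so these values describe the pattern only.

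KLF2 has processed copies elsewhere in the genome to which its reads could also be assigned. KLF2P1, on chromosome 2, was between 1.62 and 2.88 TPM in 6 libraries and at 6.93 and 3.85 TPM in UF1hypo shUHRF1. KLF2P4 was at most 0.635 TPM in those 6 libraries and at 4.16 and 2.88 TPM in UF1hypo shUHRF1, and KLF2P2 and KLF2P3 were listed at 0. The copies were thus highest where KLF2 was highest, at a small part of its level, and how reads were divided between them was not tested.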

How the data were processed

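RNA-seq of polyadenylated RNA from 8 libraries was used, 2 in each of 4 groups that were set from the sample titles. Per the methods and labels, the authors used Fastp for trimming, HISAT2 2.0.4 for alignment to GRCh38 and StringTie 2.1.4 for gene abundances. The deposited TPM values are scaled for gene length and sum to 1000000 in each library. The FPKM values deposited by the authors are scaled for gene length and aligned bases. The coverage values, a signal of mean per-base read depth deposited by the authors, are not scaled for depth and served only to recover the aligned bases of each library from their ratio to FPKM. No read counts were used, so no counting interval could be formed, and the authors' DESeq2 test, which needs counts, was not repeated.

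Gene identifiers were matched to GENCODE version 44. Protein-coding genes with TPM above 1 in at least 1 library of a comparison were tested on log2(TPM + 1) with limma 3.58.1 (R 4.3.3) in 1 fit of all 8 libraries with 4 group terms, 4 residual degrees of freedom and variances that follow the mean. P-values were adjusted over all genes tested (Benjamini-Hochberg), and calls needed an adjusted p below 0.05 and an absolute log2 fold change above 1. The members and the gene lists were chosen with earlier results of these data known, and some genes of the target list are not reported here. Named genes are the members, UHRF1 and up to 6 called genes of each other list with the largest changes. Other KLF and SP genes above 10 TPM and the 5 genes most like KLF2 are named too. KLF14 and SMAD3 were added after their values were seen. Alternatives changed the pseudocount, filter, gene set, unit, scaling, libraries, variance model, GC content and length correction (10 bins each), treatment of duplicate identifiers and replicate block. The fit was also run on simulated data with noise drawn gene by gene, which leaves out spread that genes share along GC content. Tables and figures used Python 3.11.15, numpy 2.4.6, pandas 2.3.3 and matplotlib 3.10.9.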

Additional observations from a re-analysis of the deposited data

Results flagged for a closer look

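KLF2 had log2 fold changes of −0.95 in HCT116 and 1.00 in UF1hypo, with every knockdown library below the controls in the first and above them in the second. KLF5 had −0.16 and 0.41 with the same arrangement. These are of note because the lines moved apart, and for both genes the difference is given as a description and not as a test, since the members were chosen by these comparisons.

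Other genes are listed because limma called the difference of the knockdown effects, UF1hypo minus HCT116, on the log2 scale. Among the KLF targets the difference was 2.81 for CCL5, 1.86 for L1CAM and 1.14 for CDH1, and it was −1.23 for CDKN1A. Among the immediate-early genes it was 1.83 for JUN, 1.43 for FOSL1, 1.23 for ATF3 and −1.21 for BTG2. The call of CCL5 held in every fit with a library left out, and the other 7 did not.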

How the results depend on the processing

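Over 23 alternatives, calls of single genes were gained and lost, as given above for the lists and below for the members. The log2 fold change of KLF2 kept its sign in all 22 alternatives in HCT116 and in all 23 in UF1hypo. Some small values changed sign. That of KLF6 in HCT116 kept its sign in 19 of 22 alternatives, and that of KLF10 in the clone in 17 of 22. The choice of members used the knockdowns, so the counts of members that follow are descriptive and not a test. In HCT116 1 member (KLF7) was called in place of 0 with the 4 libraries of the comparison alone and with library weights, and 0 to 1 with a library left out. In UF1hypo 2 members (KLF6 and KLF2) were called in place of 1 with a pseudocount of 0.1, and 1 to 2 with a library left out, 2 without UF1hypo shUHRF1 replicate 2. The difference passed both thresholds for 0 to 3 members with a library left out, 0 without HCT116 shUHRF1 replicate 2, 1 without HCT116 shScr replicate 2 or HCT116 shUHRF1 replicate 1, and 3 (KLF7 added) without UF1hypo shUHRF1 replicate 1. Of the other KLF and SP genes 1 (KLF15, lower in the clone) was called with the GC content and length correction, with and without the replicate block, and 0 to 3 with a library left out, the most without UF1hypo shUHRF1 replicate 2. The 17 calls in the other lists became 5 (without UF1hypo shScr replicate 2) to 33 (without UF1hypo shUHRF1 replicate 2).

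Over all genes, quantile normalization left 683 higher and 291 lower calls in UF1hypo against 1007 and 155, and calls in HCT116 ran from 0 with no TPM filter to 96 with library weights against 10. The GC content and length correction gave 765 positive and 283 negative differences against 625 and 77. Quantile normalization moved the median of all genes from 0.04 to −0.06 in UF1hypo and from 0.08 to −0.06 in the difference. Replicate deviations correlated between −0.025 and 0.061 across groups, apart from −0.441 between the UF1hypo groups. No common effect of the replicate number was thus seen, but such correlations cannot exclude that samples were paired or shared a batch. The replicate block left 0, 1, 2 and 0 members called in HCT116, UF1hypo, the difference and the clone, and 15 calls in the other lists. A crossed replicate block, chosen after seeing the data, gave 1207 calls in UF1hypo and 693 in the difference. Depth behind single genes is unknown, so the low levels of KLF7 and KLF9 carry counting error that could not be measured.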
